A study of Arabidopsis thaliana with 4 samples.

Results

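Berberine-bridge-like oxidoreductases are a family of plant enzymes named after the berberine bridge enzyme of alkaloid-making plants. The genes described here are 10 Arabidopsis thaliana loci of that family with ties to elicitors, wounding or the oxidation of monolignols in the cell wall, and they were found through the gene each probe set of the array names. Of the 10 loci, 9 had a probe set of their own, out of 13333 genes named alone by a probe set. AT1G30720, the remaining locus, is listed on a probe set that names 2 genes, so it has no value of its own. The loci were chosen by gene family with earlier results of the same 4 arrays in view, among them the difference in signal between the groups, so that difference is given for them as a description, and counts of calls among them support nothing.

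Transcripts were measured with 1-colour Affymetrix arrays in 2-week-old whole seedlings of the Col-0 accession, grown untreated on agar medium with 3% sucrose at 22 °C in cycles of 16 h light and 8 h dark. The groups were 2 wild type arrays and 2 arrays titled as Col-0 plants overexpressing At1g54160, the locus of the CCAAT-binding factor subunit NFYA5. The design text calls that second group an nfya5 mutant instead, the promoter behind the overexpression is not named in the labels, and 0 probe sets were listed for At1g54160, so the label could not be checked. The titles were followed, and the arrays are called overexpressor replicates 1 and 2. Signals are in arbitrary units, with array medians of 181.4 to 194.1, and arrays of the same group correlated at 0.988 or more over the tested probe sets. No label says whether replicates were separate cultures, so their spread may be technical.

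The enzymes of this family carry a covalently bound FAD cofactor, and many are secreted to the cell wall. Arabidopsis makes no berberine, and its family members are known to act on other substrates: monolignols, which are the building units of lignin, and the oligosaccharides that are freed when pectin or cellulose is broken down. Such fragments act as elicitors, that is, they switch on defence, and oxidation by some of these enzymes lowers that activity. AT1G26380 is known for a further role, the synthesis of a cyanogenic indole metabolite during defence against bacteria, and its transcript is widely used as a marker of elicitor responses.

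AT1G26380 had the widest spread of all members over the 4 arrays. Its signal was 106.4 and 69.5 on the wild type arrays, and 548.4 and 193.9 on overexpressor replicates 1 and 2. Both overexpressor arrays lay above both wild type arrays, but their plain signals also lay 2.83-fold apart from each other. The wild type mean was 87.95 ± 26.1 and the overexpressor mean 371 ± 251 (SD, n = 2 arrays each). On the log2(signal + 50) scale, which is used for all differences below and understates those of dim probe sets, the overexpressor mean was higher by 1.48 ± 0.33 (SE from the fit to all tested probe sets).

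AT1G26390, AT1G26410 and AT1G26420 lie beside AT1G26380 on chromosome 1 and belong to the same subgroup of the family. AT1G26390 had signals of 29.1 and 36.7 in wild type against 150.9 and 72.1 on the overexpressor arrays, again without overlap between the groups. AT1G26420 was at 95.0 and 58.5 in wild type and at 254.3 and 114.1 on the overexpressor arrays. In both genes overexpressor replicate 1 was the highest array and replicate 2 the next. AT1G26410 differed from them: its signals were 6.0 and 17.1 in wild type, 87.1 on overexpressor replicate 1 and 11.4 on overexpressor replicate 2. For this gene 1 array alone stood out, and overexpressor replicate 2 lay between the wild type arrays. The differences in group means were 0.92 for AT1G26390, 0.58 for AT1G26410 and 0.83 ± 0.27 (SE) for AT1G26420. AT1G26390 and AT1G26410 had mean signals of 72.2 and 30.4 over the 4 arrays, under the minimum of 100 for the fit, so they have no SE. AT1G26380 and AT1G26420 reached that minimum only through the overexpressor arrays, since their wild type means were 87.95 and 76.75. Genes of this cluster have related sequences. None of their probe sets has the suffix for shared probes, but how far each probe set also picks up its neighbours' transcripts was not measured.

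**Figure D1:**
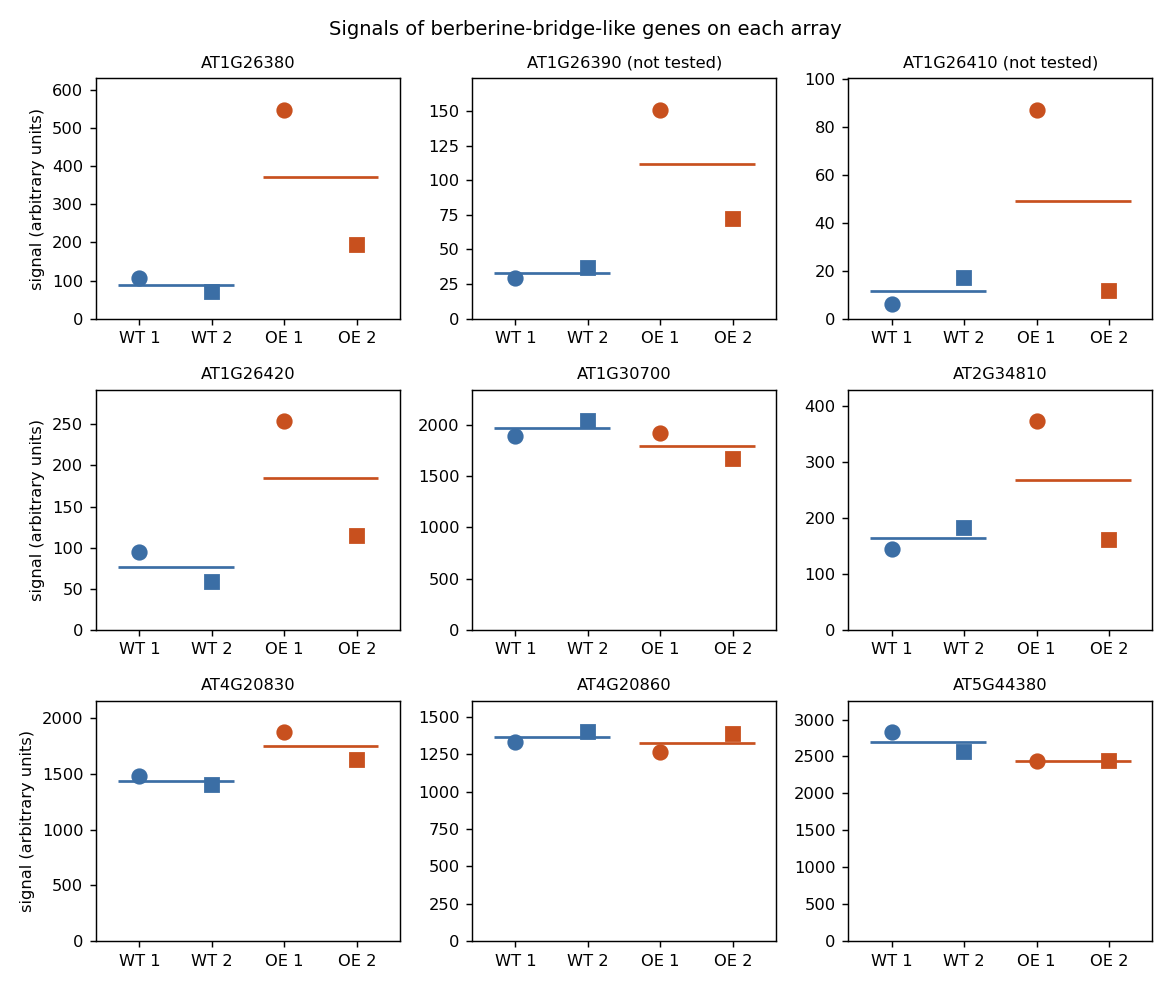
Signal in arbitrary units (linear axis from 0) of the 9 berberine-bridge-like genes on each array, WT for wild type and OE for overexpressor, with a line at each group's mean of 2 arrays. AT1G26380, AT1G26390, AT1G26410, AT1G26420 and AT2G34810 stand highest on overexpressor replicate 1, whereas the 4 genes with mean signals over 1000 vary little.

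AT2G34810, whose transcript is known to accumulate after wounding and jasmonate treatment, was raised on a single array. It had signals of 144.9 and 182.3 in wild type, 372.9 on overexpressor replicate 1 and 160.4 on overexpressor replicate 2. Overexpressor replicate 2 thus lay between the wild type arrays, and the groups overlapped. The difference of the means was 0.49 ± 0.26 (SE), made up of 0.99 for overexpressor replicate 1 and -0.02 for overexpressor replicate 2, each against the wild type mean.

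AT4G20830 and AT4G20860 encode oxidases of cell wall fragments. The product of AT4G20830 oxidises oligogalacturonides, which come from pectin, and that of AT4G20860 oxidises cellodextrins, which come from cellulose. AT4G20830 had signals of 1481.8 and 1399.1 in wild type against 1876.5 and 1624.4 on the overexpressor arrays. The groups did not overlap, and the mean difference of 0.27 ± 0.10 (SE) corresponds to a 1.21-fold higher signal + 50. Another probe set names AT4G20830 together with its relative AT4G20840 and cannot be given to either. Its signals went the other way, 296.0 and 306.4 in wild type against 265.5 and 261.1 on the overexpressor arrays, with a difference of -0.16 ± 0.13 (SE). AT4G20860 was at 1335.0 and 1400.1 in wild type and at 1265.6 and 1389.7 on the overexpressor arrays. These ranges overlapped, with a difference of -0.04 ± 0.10 (SE).

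AT1G30700 and AT5G44380, for which no role is stated here, were lower on average in the overexpressor arrays by small amounts. AT1G30700 had signals of 1896.7 and 2040.5 in wild type against 1918.3 and 1670.5 on the overexpressor arrays, which overlap. AT5G44380 had 2830.9 and 2558.3 in wild type against 2433.9 and 2434.9 on the overexpressor arrays, which do not overlap. The differences were -0.13 ± 0.10 and -0.14 ± 0.09 (SE). The probe set that names AT1G30720 together with AT1G30730 carries the suffix for shared probes and cannot be given to either gene. It had signals of 3955.1 and 4223.9 in wild type against 3153.2 and 3022.3 on the overexpressor arrays, which do not overlap. Its difference was -0.40 ± 0.09 (SE).

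Across the 9 genes, 6 had a higher and 3 a lower mean on the overexpressor arrays, and the median difference was 0.49. It was 0.27 over the 7 tested genes, against 0.02 over all tested probe sets. The median of the 9 genes rested on overexpressor replicate 1, without which it was 0.02, and it was 0.99 without overexpressor replicate 2. The groups did not overlap for 5 of the 9 genes, 4 of them higher and 1 lower. Of all probe sets other than controls, 43.0% did not overlap, 24.4% with the overexpressor arrays higher and 18.6% with them lower. Of the 7 genes bright enough to be tested, 0 were called by limma at an adjusted p of 0.05, a rule that called 1.29% of all tested probe sets. At an unadjusted p under 0.05 there were 3 of 7, against 16.5% of all tested probe sets. Calls among these 7 genes with 1 array left out are not given, because a group then holds 1 array. These genes were chosen with the contrast known, and AT1G26380 and AT1G26420 were bright enough only through the overexpressor arrays, so nothing is read from any of these counts.

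**Figure D2:**
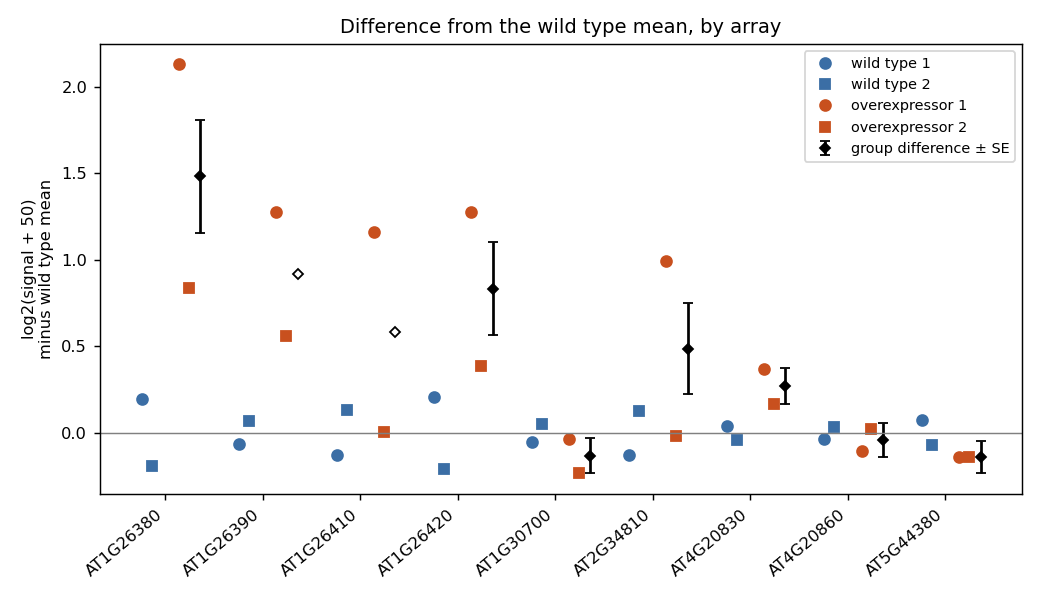
Difference of each array from the wild type mean on the log2(signal + 50) scale for the 9 genes, with the group difference and its SE (black diamonds, open without SE where the gene was not tested). Overexpressor replicate 1 stands 0.99 to 2.13 above the wild type mean for AT2G34810 and the 4 genes at AT1G26380, and overexpressor replicate 2 stands between -0.02 and 0.84.

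The gap between the overexpressor arrays was wide for several of these genes. Overexpressor replicate 1 exceeded replicate 2 by 1.29 for AT1G26380, 1.16 for AT1G26410, 1.01 for AT2G34810, 0.89 for AT1G26420 and 0.72 for AT1G26390. Over all tested probe sets the median absolute gap between these arrays was 0.12, and 28 of 13961, or 0.201%, were at least 1 log2 unit apart on the log2(signal + 50) scale. AT1G26380 and AT2G34810 are among those 28, and AT1G26410, which was not tested, had a gap of that size as well. By plain signal, AT1G26420 and AT1G26390 were also more than 2-fold apart between the overexpressor arrays, at 2.23-fold and 2.09-fold. Of the 28, overexpressor replicate 1 was the higher array for 25 and replicate 2 for 3. On the same scale the wild type arrays were less than 1 log2 unit apart for all 9 genes, with the largest gap, 0.42, for AT1G26420. By plain signal AT1G26410 was 2.85-fold apart between the wild type arrays, at the dim signals given above. Overexpressor replicate 1 was the highest array for 6 of the 9 genes, as it was for 26.6% of tested probe sets.

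**Figure D3:**
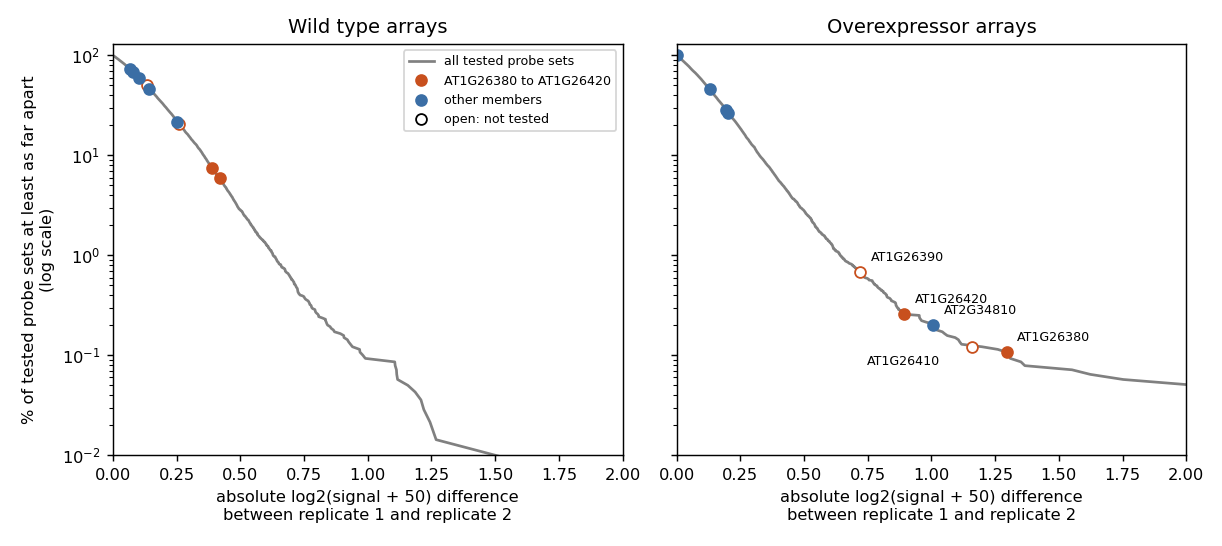
Percentage of tested probe sets (log axis) whose 2 arrays of a group lie at least as far apart as the value on the horizontal axis, the absolute log2(signal + 50) difference, shown up to 2, for wild type (left) and overexpressor arrays (right). The gap between overexpressor arrays of AT1G26380 was reached by 0.107% of tested probe sets and that between its wild type arrays by 7.54%.

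Brightness separates the genes in the same way as the spread does. Among the 3861 tested probe sets with a mean signal from 100 up to 250, the median range over the 4 arrays was 0.38, and AT1G26380, AT1G26420 and AT2G34810 had ranges of 2.32, 1.49 and 1.12. Ranges as wide as these were seen in 0.155%, 0.363% and 0.881% of that bin. Among the 2437 tested probe sets from 1000 up to 3000, the median range was 0.26. AT1G30700, AT4G20830, AT4G20860 and AT5G44380 had ranges of 0.28, 0.41, 0.14 and 0.21, each reached by at least 19.9% of that bin. These ranges include the group difference known when the loci were chosen, and AT1G26380 and AT1G26420 reach the dimmer bin only through the overexpressor arrays, so they are a description only.

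Most of these genes sit in tandem runs with relatives, as the TAIR10.1 gene table orders them. No coordinates are given because the build behind the probe annotation is not given in the sources used here. The run from AT1G26380 to AT1G26420 consists of 5 protein-coding genes, all of the family. AT1G26400, in the middle of it, was not among the chosen loci, and its signals were 17.1 and 9.6 in wild type and 13.8 and 9.8 on the overexpressor arrays. This gene stayed dim on every array while the genes on both sides of it were brighter on overexpressor replicate 1. AT1G30700 heads a run of 9 protein-coding genes that includes AT1G30760, a monolignol oxidoreductase gene. AT4G20830 and AT4G20860 lie in a run of 8 protein-coding genes. In that run AT4G20820, a relative, had a mean below the minimum, and TPP2, a peptidase gene of another family, had a difference of -0.01 ± 0.10 (SE).

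AT5G44380 lies in a run of 9 protein-coding genes, 6 of the family, that also holds the jasmonate-responsive defensin gene PDF1.2 (AT5G44420). PDF1.2 had signals of 195.9 and 151.7 in wild type, 4434.3 on overexpressor replicate 1 and 67.1 on overexpressor replicate 2, so the array on which it was highest is the one on which AT1G26380 and AT2G34810 were highest. AT5G44410, the gene of the family next to it, had 59.1 and 104.4 in wild type and 85.4 and 78.3 on the overexpressor arrays, and AT5G44380, as given above, had nearly equal signals on the overexpressor arrays. AT5G44360 and AT5G44390, also of the family, were highest on overexpressor replicate 1 with dim signals of 19.5 and 63.6. AT5G44440, a dim relative in the same run, was instead highest on wild type replicate 1. Its signals were 47.0 and 3.9 in wild type against 4.3 and 1.3 on the overexpressor arrays.

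**Figure D4:**
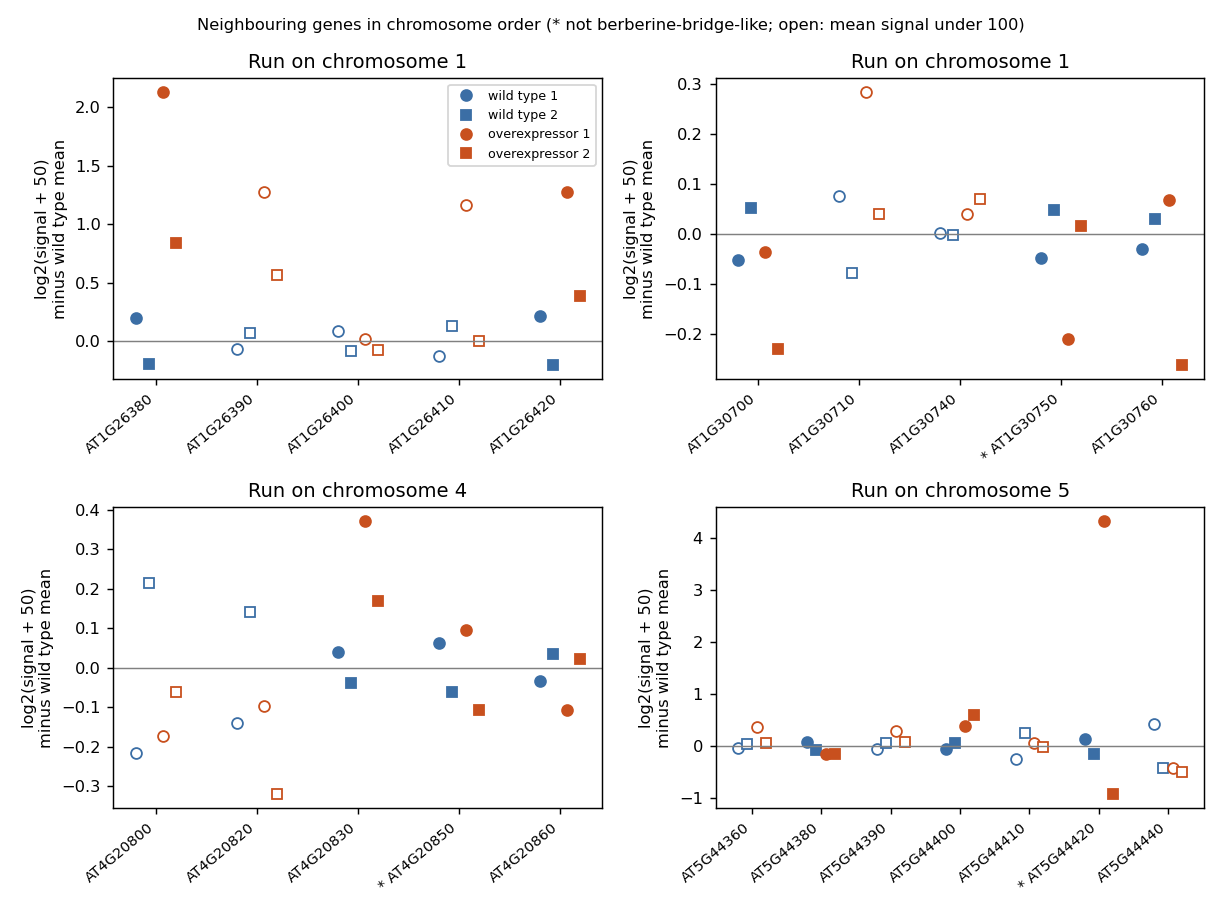
Difference of each array from the wild type mean, log2(signal + 50), for genes with a probe set in 4 runs of neighbours, in chromosome order at equal spacing, with vertical scales that differ between panels. In the run at AT1G26380 overexpressor replicate 1 is high for every gene but AT1G26400, and in the run on chromosome 5 for the defensin gene AT5G44420 (PDF1.2).

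Outside the chosen loci, 17 further genes of the family were listed, of which 13 had a probe set and 2 were tested. Neither passed (limma), and 1 had an unadjusted p under 0.05. AT5G44400 had signals of 328.9 and 361.2 in wild type against 469.7 and 548.6 on the overexpressor arrays, with a difference of 0.50 ± 0.13 (SE, adjusted p = 0.084). Here overexpressor replicate 2 was the highest array, unlike in the genes at AT1G26380. AT1G30760 had a difference of -0.10 ± 0.15 (SE, adjusted p = 0.80). The other 11 were dim, with signals from 0.8 to 123.2, and overexpressor replicate 1 was the highest array for 3 of them.

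The genes whose centred values over the 4 arrays lay nearest to those of AT1G26380 were AT2G43570 (CHI), AT5G38900 and AT2G43620, by Euclidean distance among 7495 other tested probe sets that name 1 gene. AT2G43570 and AT2G43620 encode chitinase family proteins, and AT5G38900 encodes a protein of the thioredoxin superfamily. AT2G43570 had signals of 148.7 and 118.3 in wild type against 523.8 and 237.2 on the overexpressor arrays, at a distance of 0.41. AT5G38900 was at 80.9 and 53.3 against 280.8 and 148.6, at a distance of 0.52, and AT2G43620 was at 374.1 and 324.4 against 993.4 and 540.7, at 0.62. All had the order of arrays of AT1G26380, with overexpressor replicate 1 highest and wild type replicate 2 lowest. That order largely follows from choosing them by closeness to the values of AT1G26380. With 4 arrays such likeness is a description only. AT5G38900, with a wild type mean of 67.1, was bright enough to be tested only through the overexpressor arrays.

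Genes of the pathways around these enzymes were tested only where a probe set named them alone and was bright enough. Such a probe set, bright or dim, was listed for 2 of 22 indolic defence, 7 of 27 monolignol and 12 of 19 pectin genes. It was listed for 6 of 27 elicitor and 3 of 30 wounding and jasmonate genes. Of the listed indolic defence genes 2 of 22 were tested and 0 passed (limma), although both had an unadjusted p under 0.05. CYP71B6, a cytochrome P450 gene of indole carboxylic acid formation, had signals of 844.0 and 786.4 in wild type against 1533.5 and 962.6 on the overexpressor arrays (log2 difference 0.55 ± 0.17 SE, adjusted p = 0.14). UGT74B1, a glucosyltransferase gene of glucosinolate synthesis, had 874.3 and 873.3 against 1390.7 and 999.8 (0.41 ± 0.14 SE, adjusted p = 0.17). In both, as in AT1G26380, overexpressor replicate 1 was the highest array and replicate 2 the next. Their median difference of 0.48 was 0.21 without overexpressor replicate 1 and 0.76 without replicate 2, each leaving 1 array in that group.

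Monolignol and lignin synthesis had 6 of 27 genes tested, with 0 calls in limma's test and 1 gene with an unadjusted p under 0.05. Their median difference of 0.18 was 0.06 without wild type replicate 1 and 0.12 without wild type replicate 2. It was 0.03 without overexpressor replicate 1, 0.17 without overexpressor replicate 2, and 0.03 with a minimum signal of 250. The gene with the smallest p was UGT72E1, which encodes a glucosyltransferase of monolignol aldehydes, at -0.34 ± 0.11 (SE, adjusted p = 0.17). CCR2, a cinnamoyl-CoA reductase gene, had 0.37 ± 0.19 (SE, adjusted p = 0.35), with a wild type mean of 99.9, under the minimum of 100. Of the genes that free or alter pectin fragments, the source of the substrate of AT4G20830, 11 of 19 were tested, with a median of -0.09 (-0.07 to -0.02 with 1 array left out), 0 calls and 2 genes with an unadjusted p under 0.05. The pectate lyase gene AT3G53190 had 0.49 ± 0.11 (SE, adjusted p = 0.065) and AT3G62110, of the pectin lyase-like superfamily, had -0.28 ± 0.11 (SE, adjusted p = 0.25). By array, AT3G53190 stood 0.56 and 0.43 above the wild type mean on overexpressor replicates 1 and 2. AT5G48900, also a pectate lyase gene, stood at -0.51 and -0.03. All these counts stand beside 1.29% called among all tested probe sets.

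Of the elicitor and cell wall damage genes 4 of 27 were tested, with 0 calls in limma's test and 2 at an unadjusted p under 0.05. WRKY53, a transcription factor gene that responds early to elicitors, had signals of 81.8 and 83.3 in wild type against 158.8 and 128.3 on the overexpressor arrays. Its wild type mean of 82.55 was under the minimum of 100, which it reached only through the overexpressor arrays. The difference was 0.54 ± 0.18 (SE, adjusted p = 0.16). AT1G51850, a receptor-like kinase gene, had -0.39 ± 0.15 (SE, adjusted p = 0.22), in the other direction. The wounding and jasmonate list had 2 of 30 genes tested, PDF1.2 and PDF1.2b, with 0 calls and 0 at an unadjusted p under 0.05. PDF1.2b, whose probe set carries the suffix for shared probes, was at 143.3 and 139.7 in wild type, 5786.2 on overexpressor replicate 1 and 82.5 on the other overexpressor array. Against the wild type mean, PDF1.2 stood at 4.33 on overexpressor replicate 1 and -0.93 on replicate 2, and PDF1.2b at 4.93 and -0.53. THI2.1, the only other gene of the list with a probe set naming it alone, was too dim to be tested. Its signals were 23.8 and 31.0 in wild type, 54.4 on overexpressor replicate 1 and 30.9 on replicate 2.

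**Figure D5:**
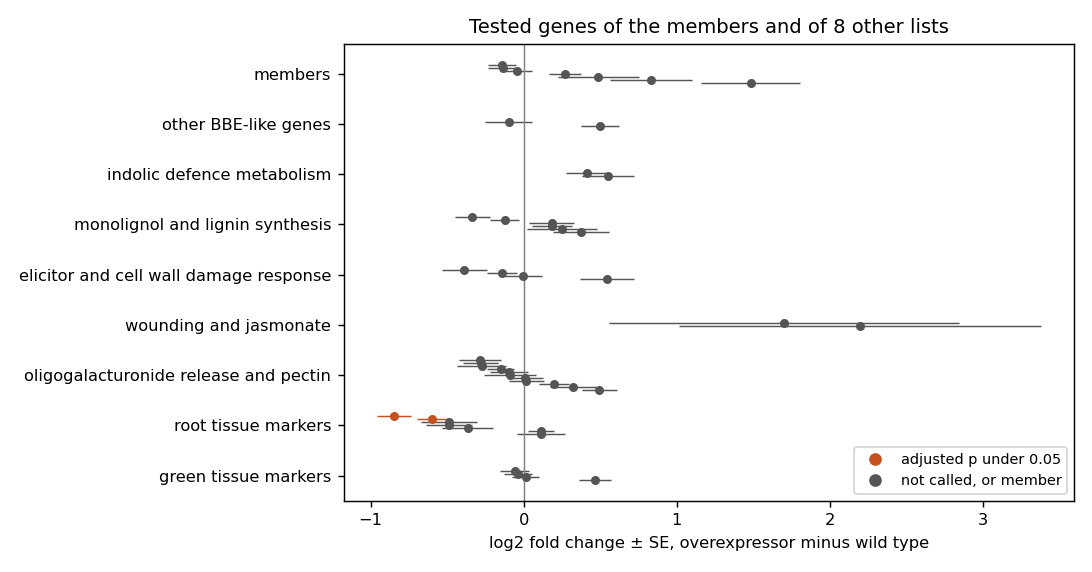
Difference between the groups with its SE, log2(signal + 50), for tested genes of the 9 described (top) and of 8 other lists, with genes called at an adjusted p of 0.05 in orange (members are left unmarked). The called genes are 2 root markers, both lower, and the widest error bars belong to the defensin genes of the wounding and jasmonate list.

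Markers of tissues were read because whole seedlings mix organs, in which fewer cells of a type and less RNA per cell cannot be told apart. Of 10 root markers 7 were tested, of which 2 were called lower and 0 higher, with a median of -0.49, which became -0.29 with overexpressor replicate 1 left out and -0.69 with replicate 2 left out. The lower genes were class III peroxidase genes, AT4G26010 (-0.85 ± 0.11 SE, adjusted p = 0.0090) and AT3G01190 (-0.60 ± 0.10 SE, adjusted p = 0.025). Neither was called with a constant variance prior. PYK10, the abundant root beta-glucosidase gene, had 0.11 ± 0.09 (SE). Of 14 green tissue markers 4 were tested, with a median of -0.01 (-0.06 to 0.05 with 1 array left out), 0 calls and 1 at an unadjusted p under 0.05, the light-harvesting gene LHCB4.3 (0.47 ± 0.10 SE, adjusted p = 0.060). RCA, which encodes Rubisco activase, had -0.06 ± 0.09 (SE). The part of these markers in the differences of the berberine-bridge-like genes was not tested.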

How the data were processed

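The authors deposited linear array intensities. These are MAS5 signals, per the submitters' processing notes, and each array was scaled to a target of 500, per the labels. Detection calls were not used here. Of 22810 probe sets, 13513 named 1 gene in the platform annotation and 13484 of these matched the TAIR10.1 gene table. The 13961 probe sets other than the 64 controls with a mean signal of at least 100 were tested on log2(signal + 50) with limma 3.58.1 in R 4.3.3 (lmFit, eBayes with intensity trend, 2-sided, Benjamini-Hochberg over all tested, threshold 0.05), after a check on simulated data. With 2 arrays a group, exact permutation gives no p below 0.333 and was not used. The members and lists were chosen with earlier results of these data known. Named are all members, from each list up to 4 calls or otherwise the 2 smallest p-values, the 3 nearest profiles of the member with the widest range, and cluster neighbours. AT5G48900, PYK10 and THI2.1 were named after their values were seen. Of a listed gene, the brightest probe set was used. Alternatives covered pseudocount, filter, normalization, variance prior, replicate block and each array left out. No sequence tables were used here.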

Additional observations from a re-analysis of the deposited data

How the results depend on the processing

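Over 14 alternative settings, 7 of the 9 berberine-bridge-like genes kept the sign of their difference. The settings of filter, variance prior and replicate block leave the difference itself unchanged, so they could not turn a sign. The sign turned for AT2G34810 (-0.02) and AT4G20860 (0.02), each without overexpressor replicate 1. With 1 array left out, AT1G26380 ranged from 0.84 to 2.13, AT1G26390 from 0.56 to 1.28, AT1G26410 from 0.00 to 1.16 and AT1G26420 from 0.39 to 1.28. A pseudocount of 1 gave 1.65 for AT1G26390 and 1.55 for AT1G26410, the dimmest members.

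Calls among the 7 tested members were 0 as reported, 1 with a pseudocount of 1, and 1 with median centring. The gene called in both settings was AT1G26380, which was not called with a constant or a robust variance prior. It was bright enough only through the overexpressor arrays, so nothing is read from these calls. Over all tested probe sets 180 were called, 1 without a filter on low signals, 9 with a constant variance prior, and 101 to 489 with 1 array left out. Of the root markers 2 were called, 0 without the filter, and 0 with the constant prior. With 1 array left out a group holds 1 array, so calls among members and root markers are not given for those settings. For the same reason nothing is read from the range over all tested probe sets. The cause of the shifts in calls between settings was not tested.

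Same-numbered arrays of the groups correlated at 0.06 in their deviations from the group means, and no label pairs them. With the replicate number as a block, 1075 probe sets were called, and 3 members (AT1G26380, AT1G26420 and AT2G34810). The block adds a term to the fit of the same 4 arrays, which leaves less to estimate the spread from. Nothing is therefore read from calls made with it. The block also gave 2 calls in the indolic list, 2 in the wounding and jasmonate list, and 1 each among other family genes (AT5G44400), pectin genes (AT3G53190) and green tissue markers (LHCB4.3).

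Signal limits AT1G26390 and AT1G26410, which lie below the minimum, as do 11 of the 13 other family genes with a probe set.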
